A study of Mus musculus with 8 samples.

Results

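The tuft cell program was examined through 33 genes that mark or equip tuft cells, and their mRNA levels in intestinal epithelial cells (IECs) of CD1d-KO mice were set against those of wild-type (WT) mice. The members were the rows of the deposited count table whose gene symbol was on a list written for tuft cells, and all 33 were found among the 25239 genes listed. All 33 had enough counts to receive an adjusted p. Bulk RNA-seq had been made from 4 CD1d-KO and 4 WT samples of epithelial cells freshly sorted from the crypts of the proximal small intestine, each from a separate young adult mouse per the study's methods. The CD1d-KO mice carried a germline deletion of CD1d1 and CD1d2, so CD1d was missing from every cell of the body as well as from IECs, and such mice have no natural killer T (NKT) cells, which recognise lipids on CD1d. The WT mice are C57BL/6Jax in the labels, and per the study both genotypes were bred in the same facility but were not littermates, so litter and microbiota cannot be told apart from genotype. Sex and experiment are not among the labels of single mice.

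Tuft cells are rare secretory epithelial cells that sense the gut lumen with the same cascade that taste cells use. A receptor activates a G protein, phospholipase C releases calcium from internal stores, and calcium opens the cation channel TRPM5, after which the cell secretes IL-25, acetylcholine, prostaglandins and cysteinyl leukotrienes. IL-25 acts on group 2 innate lymphoid cells, whose IL-13 in turn favours tuft and goblet cell differentiation, a circuit best known from the response to worms and protists. The lineage depends on the transcription factor POU2F3, and tuft cells express many signalling proteins otherwise found in blood cells. In bulk RNA, fewer tuft cells and less RNA per tuft cell cannot be told apart.

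Total counts were 29743061 to 31629435 in CD1d-KO and 23610266 to 29763051 in WT samples. Cd1d1, the targeted gene, held 0 to 8 raw counts in the 4 CD1d-KO libraries against 50 to 94 in the 4 WT libraries (DESeq2 log2 fold change of -4.34 ± 0.45, SE, at an adjusted p of 1.09e-18), and no library went against its label. Y-linked transcripts were present only in CD1d-KO 1 and 2, where Ddx3y had normalised counts of 1720 and 2050 against at most 1.05 elsewhere, so male mice were found in 1 genotype alone, although the study states that sexes were matched. The 8 epithelial markers, among them Epcam and Vil1, summed to 14000 to 14600 TPM (counts scaled by exon length and library) in CD1d-KO and 13600 to 15200 TPM in WT. Transcripts of other cells differed more. The 41 leukocyte markers summed to 54.6 to 65.0 TPM in CD1d-KO and 60.5 to 158 TPM in WT. Within this sum, T and NK cell markers held 2.22 to 8.22 TPM in CD1d-KO and 4.52 to 57.3 TPM in WT. B and plasma cell markers held 2.70 to 4.31 and 5.76 to 27.9 TPM, and myeloid markers 21.1 to 27.7 and 24.8 to 41.6 TPM. Mast cell markers, Kit included, held 22.4 to 29.1 and 21.6 to 25.7 TPM. Of the 6 mast cell markers, Cpa3, Fcer1a and Ms4a2 were at 0 in all 8 samples, Mcpt1 reached a normalised count of 18.3 and Mcpt2 of 8.56 in WT 4, against at most 0.95 and 0.98 in CD1d-KO, and Kit, which crypt epithelium also expresses, averaged 1569 in CD1d-KO and 1411 in WT. The 11 stomach markers summed to 58.4 to 129 TPM in CD1d-KO and 203 to 1240 TPM in WT, with no overlap between genotypes. This sum mixes unlike genes. Gkn3 overlapped, with normalised counts of 522 to 905 in CD1d-KO and 562 to 1230 in WT. Anxa10 had 0 to 16.3 in CD1d-KO against 41.9 to 388 in WT. The part of leukocyte and stomach transcripts in the tuft gene values was not tested, and their levels are given beside the results below.

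Of the 33 tuft genes, 28 had a log2 fold change below 0, 84.8% against 49.7% of all 15446 tested genes. Their median change was -0.30, with a range of -0.76 to 0.59, against a median of 0.00 over all tested genes, whose middle part lay between -0.12 and 0.11 (the quartiles). In this fit 1 member, the tyrosine kinase gene Matk, passed the DESeq2 adjusted p threshold of 0.05. Over all tested genes, 4.03% passed, 2.38% as lower and 1.65% as higher in CD1d-KO. An unadjusted p under 0.05 was reached by 10 members with a lower level in CD1d-KO (Plcb2, Trpm5, Alox5, Matk, Sh2d6, Fyb, Inpp5d, Vav1, Avil and Strip2), where the share over all genes was 8.19%. It was also reached by 1 member with a higher level, Trim38, where that share was 7.07%. The 8 samples separated by genotype without overlap for 1 member alone, Plcb2, as they did in the lower direction for 5.52% of all tested genes, and no member did so in the higher direction, as 4.09% of all genes did. The mean difference was smaller than the SD of the WT samples for 15 of 33 members and smaller than the SD of both genotypes for 10. Without the CD1d-KO samples that carried Y-linked counts, 24 of 33 were below 0, against 49% of all genes tested, with a median of -0.16. In that fit the member called was Trim38, higher in CD1d-KO, where 2.57% of all genes were called. In the lower direction 2 of 33 members, Plcb2 and Matk, reached an unadjusted p under 0.05, where the share was 6.03%. In the higher direction 2 did so, Trim38 and Nrep, for which the share over all genes was not computed. By edgeR 0 members were called, against 1.66% of all genes, and 11 had an unadjusted p under 0.05, for which the share over all genes was not computed.

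**Figure D1:**
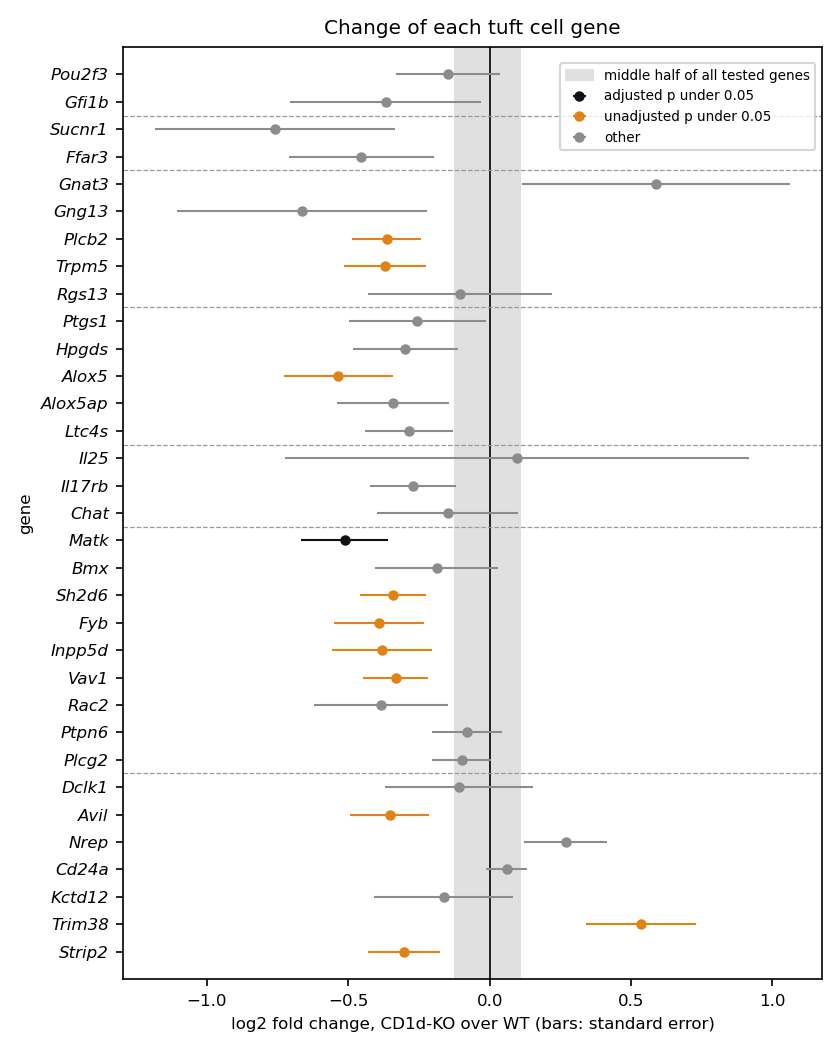
Log2 fold change of each of the 33 tuft cell genes (x axis, CD1d-KO over WT; bars are the standard error), with genes ordered by role and dashed lines between roles. The grey band spans the quartiles of all tested genes, from -0.12 to 0.11. Most points lie left of 0, and Matk alone passed an adjusted p of 0.05.

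The level of the program in each mouse was summarised as a score, the mean over the 33 genes of log2(normalised count + 1) after centring each gene on its mean over the 8 samples. CD1d-KO 1 to 4 scored -0.13, -0.38, 0.07 and 0.03, and WT 1 to 4 scored -0.19, -0.01, 0.37 and 0.24. CD1d-KO 2 was the lowest and WT 3 the highest, while WT 1 lay below 3 of the 4 CD1d-KO samples, so the genotypes overlapped. The difference of the means was -0.21, against SDs of 0.20 and 0.25. It ranged from -0.31 without WT 1 to -0.12 without CD1d-KO 2 or WT 3, and was -0.055 without both CD1d-KO samples with Y-linked counts. Single genes followed the same samples: CD1d-KO 2 held the lowest of the 8 values for 21 of 33 genes, WT 3 the highest for 17 and WT 4 the highest for 9, and WT 1 was the lowest WT sample for 28. This order was partly shared by other secretory lineages. In scores of 16 enteroendocrine and 11 goblet genes, CD1d-KO 2 was again the lowest sample (-0.49 and -0.59). WT 3 was the highest WT sample in both (0.40 and 0.35), but there WT 4, not WT 1, was the lowest WT sample (-0.39 in both). Among the 10 genes lower in CD1d-KO at an unadjusted p under 0.05, WT 1 was the only WT sample within the CD1d-KO range for 9. Leaving out WT 1 raised the members called by DESeq2 from 1 to 10, all lower in CD1d-KO, while 2.65% of all genes were called in that fit. The 10 called were the same 10 genes. As WT 1 was the sample within the CD1d-KO range for 9 of them, its removal was bound to favour these calls and adds no separate support. Leaving out CD1d-KO 2 or WT 3, the samples with the lowest and highest scores, left 0 members called, where 2.06% and 2.88% of all genes were called. In those fits 9 and 7 members had an unadjusted p under 0.05, for which the share over all genes was not computed.

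The libraries also differed in transcripts from outside the intestinal epithelium. The leukocyte marker score was 1.56, 0.51, 0.16 and -0.19 in WT 1 to 4 and -0.30 to -0.70 in CD1d-KO. Among WT samples, WT 1 had the most leukocyte transcripts and the lowest tuft score, and the 2 with the highest tuft scores had the fewest leukocyte transcripts. Between genotypes, every CD1d-KO sample was below every WT sample in the leukocyte score, and the mean tuft score was also lower in CD1d-KO. The part of leukocyte transcripts in the tuft scores was not tested. The stomach marker score was 1.12, 1.39, 4.31 and 3.10 in WT 1 to 4, and among CD1d-KO samples -3.52 to -3.23 in the first 3 and 0.28 in CD1d-KO 4. WT 3 and 4 stood highest in both the stomach and the tuft scores. With the leukocyte score as a covariate, the median change of the tuft genes was -0.55. With the stomach score as a covariate it was 0.22, with 8 genes below 0 and 25 above. Both scores separated the genotypes without overlap, although each also varied within WT (leukocyte -0.19 to 1.56, stomach 1.12 to 4.31). Genotype and either score can thus be only partly told apart in 8 samples, and neither median is a reliable adjusted value.

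**Figure D2:**
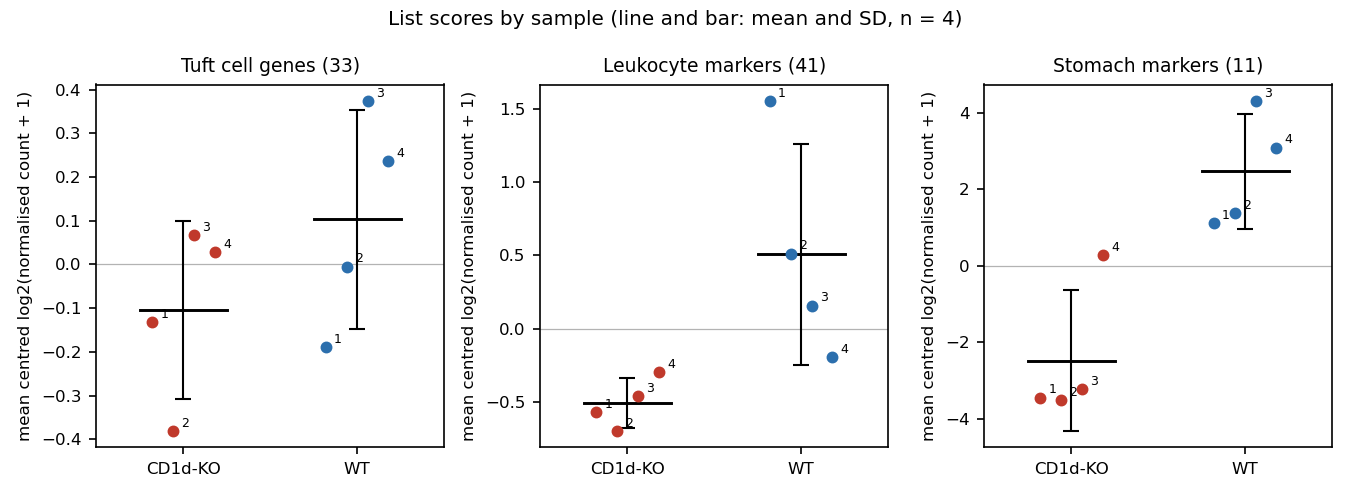
Score of each sample (y axis, mean over genes of centred log2(normalised count + 1)) for the 33 tuft cell genes, 41 leukocyte markers and 11 stomach markers. Points are samples with their replicate number, and the line and bar are the mean and SD of 4 samples. The tuft scores of the genotypes overlap, while the leukocyte and stomach scores do not. WT 1 is highest in leukocyte markers and lowest of the WT samples in tuft genes.

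**Figure D3:**
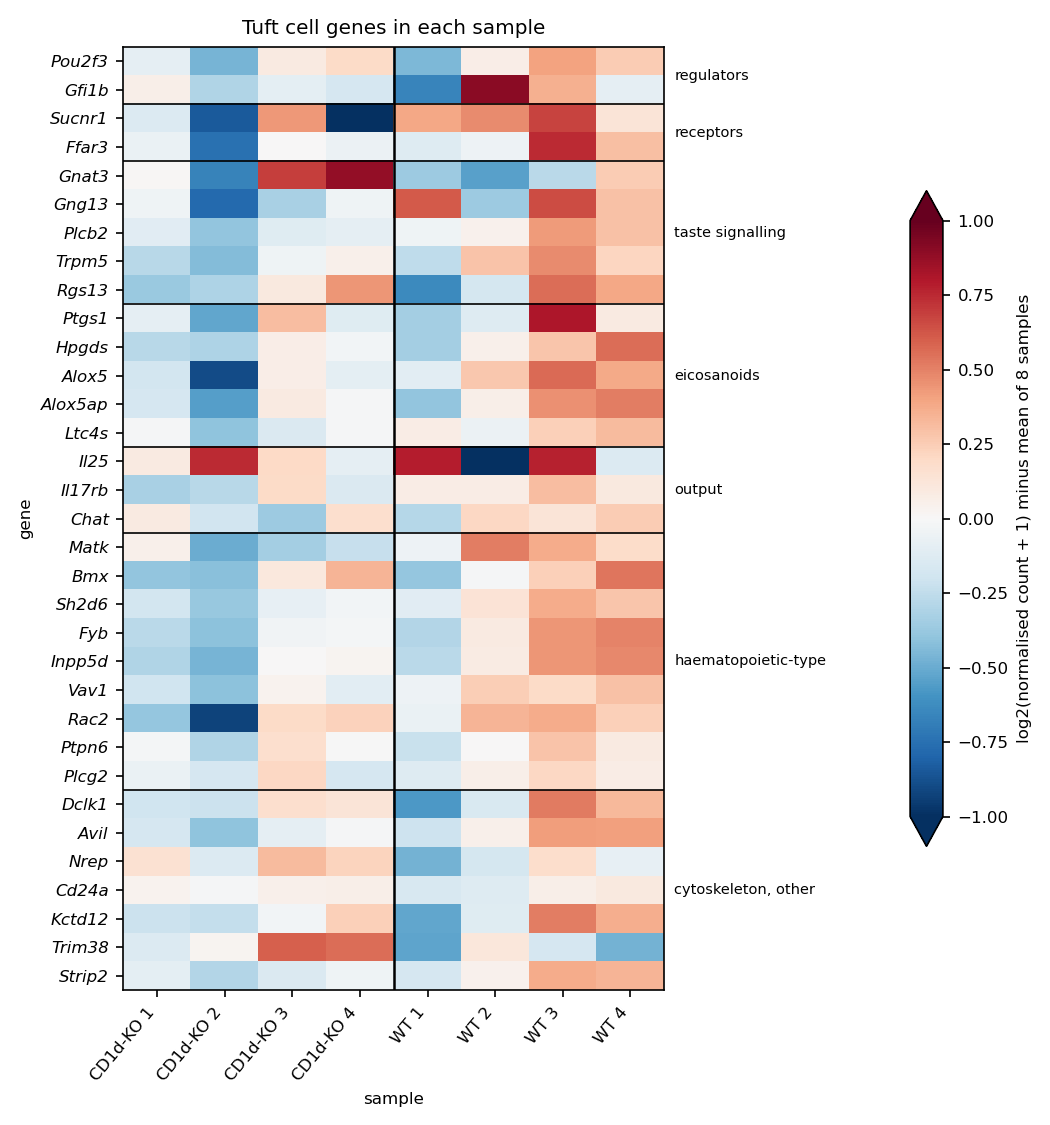
Log2(normalised count + 1) of each tuft cell gene (rows, by role) minus its mean over the 8 samples (columns), with colours limited to -1 and 1. CD1d-KO 2 is the lowest sample for 21 of 33 genes and WT 3 the highest for 17, and WT 1 resembles the CD1d-KO samples in most rows.

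The regulators of the lineage were not called. Pou2f3, the master regulator of tuft cells (mm10 chromosome 9, 43123939 to 43205755, minus strand), had normalised counts of 365, 281, 413 and 443 in the CD1d-KO samples, numbered 1 to 4, against 283, 405, 512 and 463 in the WT samples. WT 1 and CD1d-KO 2 were about equally low and the ranges overlapped widely. Its log2 fold change was -0.15 ± 0.18 (SE; DESeq2 adjusted p = 0.814), with a 95% interval of -0.51 to 0.21. Gfi1b, a zinc finger repressor known from red cell and platelet formation and also expressed in tuft cells, had a mean normalised count of 34.6 ± 3.69 in CD1d-KO and 44.7 ± 20.4 in WT (SD, n = 4) and changed by -0.37 ± 0.34 (SE) on the log2 scale.

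POU factors bind the octamer ATGCAAAT, and this motif was looked for on both strands in the 250 bases before each annotated start, as RefSeq promoters of GRCm38.p6. Entries were matched for 27 of the 33 members, with 30 promoters. The octamer was present in 3 of them (10%), against 526 of 32851 promoters of all genes (1.6%). They belonged to Sucnr1, a succinate receptor, Hpgds, a prostaglandin D2 synthase, and Kctd12, an auxiliary subunit of GABA-B receptors. They are shown 5′ to 3′ on the strand of the gene with the octamer in capitals, because they are the members whose promoters hold the motif of the regulator's family. The motif starts 48, 174 and 160 bases before the annotated start in that order, and a match of letters does not show binding. The 3 genes had log2 fold changes of -0.76, -0.30 and -0.16, none of them called.
Sucnr1 promoter, GRCm38.p6 chr3:60081619-60081868, plus strand: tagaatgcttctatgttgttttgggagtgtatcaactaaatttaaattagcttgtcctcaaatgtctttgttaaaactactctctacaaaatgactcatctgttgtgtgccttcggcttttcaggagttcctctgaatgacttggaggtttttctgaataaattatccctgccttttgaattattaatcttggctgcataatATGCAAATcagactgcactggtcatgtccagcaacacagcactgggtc
Hpgds promoter, GRCm38.p6 chr6:65144731-65144980, minus strand: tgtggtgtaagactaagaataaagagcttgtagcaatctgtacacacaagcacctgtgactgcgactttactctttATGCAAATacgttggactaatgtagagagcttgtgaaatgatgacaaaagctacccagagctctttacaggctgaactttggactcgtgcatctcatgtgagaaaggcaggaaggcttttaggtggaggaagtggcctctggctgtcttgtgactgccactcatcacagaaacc
Kctd12 promoter, GRCm38.p6 chr14:102982638-102982887, minus strand: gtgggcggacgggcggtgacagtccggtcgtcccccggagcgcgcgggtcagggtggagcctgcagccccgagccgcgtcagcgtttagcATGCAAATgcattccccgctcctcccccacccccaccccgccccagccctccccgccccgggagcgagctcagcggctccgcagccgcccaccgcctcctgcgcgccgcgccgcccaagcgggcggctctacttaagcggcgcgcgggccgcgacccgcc

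Chemosensory receptors were scarce. Sucnr1, through which tuft cells sense succinate from microbes, had a normalised count of 14.4 ± 7.58 in CD1d-KO and 24.3 ± 3.94 in WT (SD, n = 4), and its log2 fold change of -0.76 ± 0.42 (SE) was the most negative among the members, without passing the test (DESeq2 adjusted p = 0.398). Ffar3, a receptor for short-chain fatty acids, had 64.9 ± 14.2 in CD1d-KO and 88.9 ± 26.3 in WT, a change of -0.45 ± 0.26 (adjusted p = 0.406). Both ranges overlapped between genotypes.

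Among the 5 genes of taste signalling, 4 had changes below 0 and the median was -0.36. Plcb2 encodes the phospholipase C of the taste cascade and lies on chromosome 2 (118707517 to 118728438, minus strand). Its normalised counts were 553, 456, 551 and 562 in CD1d-KO 1 to 4, against 580, 616, 802 and 732 in WT 1 to 4. Every CD1d-KO sample was below every WT sample, although the nearest, CD1d-KO 4 and WT 1, were close together. The log2 fold change was -0.36 ± 0.12 (SE; unadjusted p = 0.00279, DESeq2 adjusted p = 0.0620).

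Trpm5, the cation channel that depolarises the cell (chromosome 7, 143071529 to 143094642, minus strand), was counted 1430, 1280, 1680 and 1790 times after normalisation in CD1d-KO 1 to 4, against 1450, 2110, 2400 and 2010 times in WT 1 to 4. WT 2 to 4 were above all CD1d-KO samples, and WT 1 lay among them. Its log2 fold change was -0.37 ± 0.15 (SE; unadjusted p = 0.0111, DESeq2 adjusted p = 0.147), and it moved with the samples included. It became -0.50 without WT 1 (adjusted p = 0.00289), -0.27 without WT 3 (0.424), -0.29 without CD1d-KO 2 (0.458) and -0.20 without both samples with Y-linked counts (0.721). The other 3 members of the cascade were less clear. Gng13, a G protein gamma subunit, had 11.3 ± 2.76 in CD1d-KO and 17.9 ± 5.44 in WT (SD, n = 4), a log2 change of -0.66 ± 0.44 (SE), and 15.6% of its exon length is shared with the neighbouring Chtf18. Gnat3, the alpha subunit gustducin, was at 18.3 ± 8.38 in CD1d-KO and 12.3 ± 3.37 in WT, a change of 0.59 ± 0.48, the most positive of the 33 and also not called. Rgs13, a regulator that shortens G protein signals, differed by -0.11 ± 0.33.

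Of 15 further taste receptors and partners, listed apart from the members, 9 were tested and 1 was called, where 4.03% of all genes were called. The called gene was Itpr3, the IP3 receptor through which calcium leaves the internal store, which is made by many epithelial cells besides tuft cells. Its normalised counts were 9870, 9330, 8630 and 9100 in CD1d-KO 1 to 4, against 11300, 11100, 10600 and 11400 in WT 1 to 4. All CD1d-KO samples were below all WT samples, and Itpr3 fell by 0.27 ± 0.06 (SE) on the log2 scale (DESeq2 adjusted p = 0.000608). The call held in 14 of 16 alternatives, and the fits with a stomach or leukocyte score as covariate were the exceptions (adjusted p = 0.248 and 0.310). The sweet taste receptor gene Tas1r2 had no count in any sample.

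**Figure D4:**
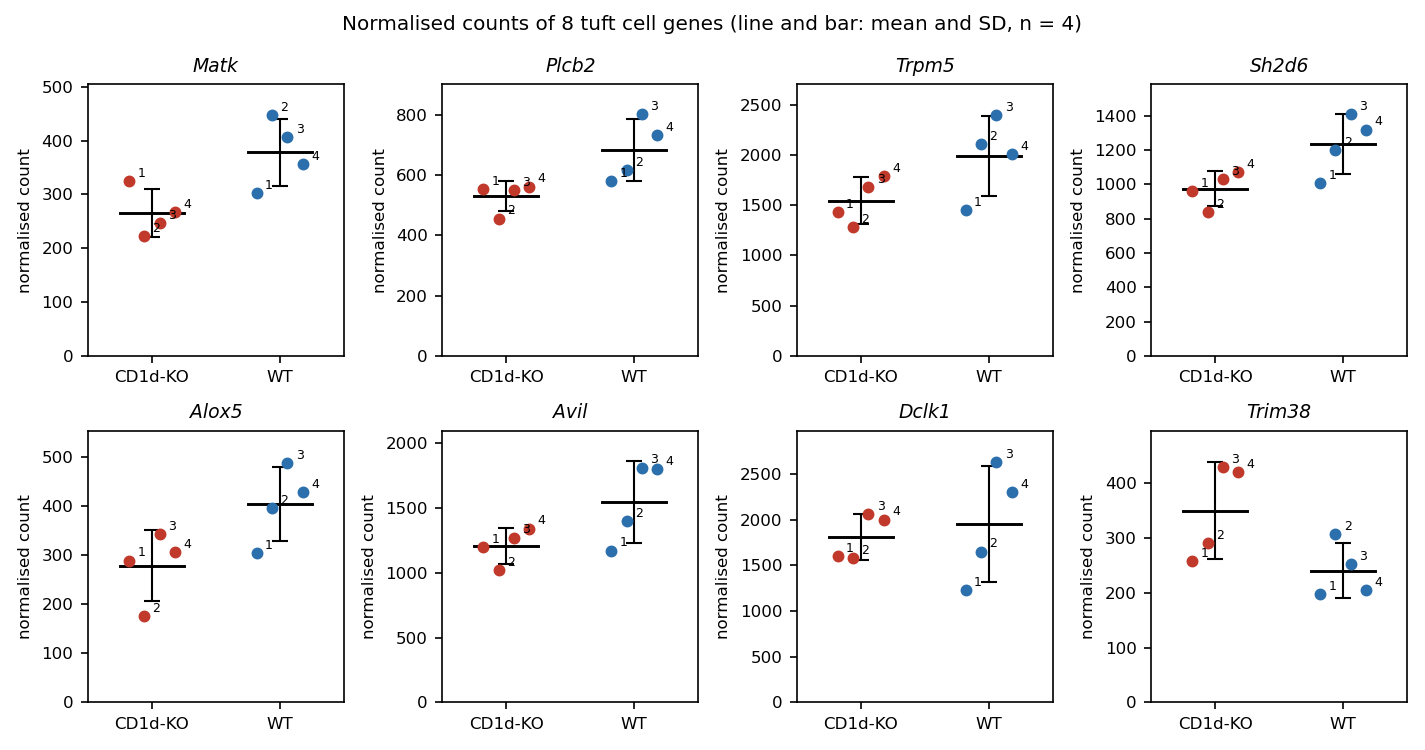
Normalised counts (y axes, starting at 0) of 8 tuft cell genes in each CD1d-KO and WT sample, numbered by replicate, where the line and bar are the mean and SD of 4 samples. WT 1 sits among the CD1d-KO samples for Trpm5, Sh2d6, Alox5 and Avil, Plcb2 separates the genotypes narrowly, Dclk1 overlaps fully, and Trim38 has its highest values in CD1d-KO 3 and 4.

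All 5 eicosanoid genes of the program had changes below 0, from -0.26 to -0.54, and none was called. Of the 5, 1 had an unadjusted p under 0.05, where the share over all genes in the lower direction was 8.19%. These enzymes turn arachidonic acid into prostaglandins and cysteinyl leukotrienes, lipid messengers through which tuft cells act on immune cells and smooth muscle. Alox5, the 5-lipoxygenase that begins leukotriene synthesis (chromosome 6, 116410071 to 116461178, minus strand), was counted 289, 176, 343 and 307 times after normalisation in CD1d-KO 1 to 4, against 305, 396, 487 and 428 in WT 1 to 4. CD1d-KO 2 was by far the lowest, and WT 1 lay below CD1d-KO 3 and 4. The log2 fold change was -0.54 ± 0.19 (SE; unadjusted p = 0.00594, DESeq2 adjusted p = 0.0999). Its partners were Alox5ap, the activating protein that presents arachidonic acid, at -0.34 ± 0.20, and Ltc4s, the leukotriene C4 synthase, at -0.28 ± 0.16. On the prostaglandin branch, Ptgs1, the cyclooxygenase of tuft cells, stood at -0.26 ± 0.24 and Hpgds at -0.30 ± 0.19.

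The wider eicosanoid pathway, a list of 26 further genes that many cell types express, was divided in direction. Of the 24 with counts, 11 were below 0 and 13 above, and 3 of the 21 tested were called, where 4.03% of all genes were called. Pla2g5, a secreted phospholipase A2 that frees fatty acids from membranes, had 137, 147, 189 and 129 normalised counts in CD1d-KO 1 to 4 against 746, 408, 413 and 378 in WT 1 to 4. The lowest WT sample had a count well above the highest CD1d-KO sample, and Pla2g5 fell by 1.70 ± 0.21 (SE) on the log2 scale (DESeq2 adjusted p = 2.22e-12), a call made in all 16 alternatives. Mgst2, a microsomal glutathione transferase that can also form leukotriene C4, had 3270, 3320, 4330 and 3790 in CD1d-KO against 2270, 2690, 2440 and 2030 in WT. It rose by 0.64 ± 0.11 (adjusted p = 1.55e-06), with no overlap between genotypes. The call was lost in 1 alternative, the stomach score as covariate (adjusted p = 0.152). Ptger4, a receptor for prostaglandin E2, had 687 to 759 in CD1d-KO and 901 to 921 in WT, and fell by 0.33 ± 0.07 (adjusted p = 0.000236). Ptger4 was called in 13 of 16 alternatives and lost its call without the samples with Y-linked counts (-0.29, adjusted p = 0.123) and with either score as covariate (0.605 and 0.409).

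**Figure D5:**
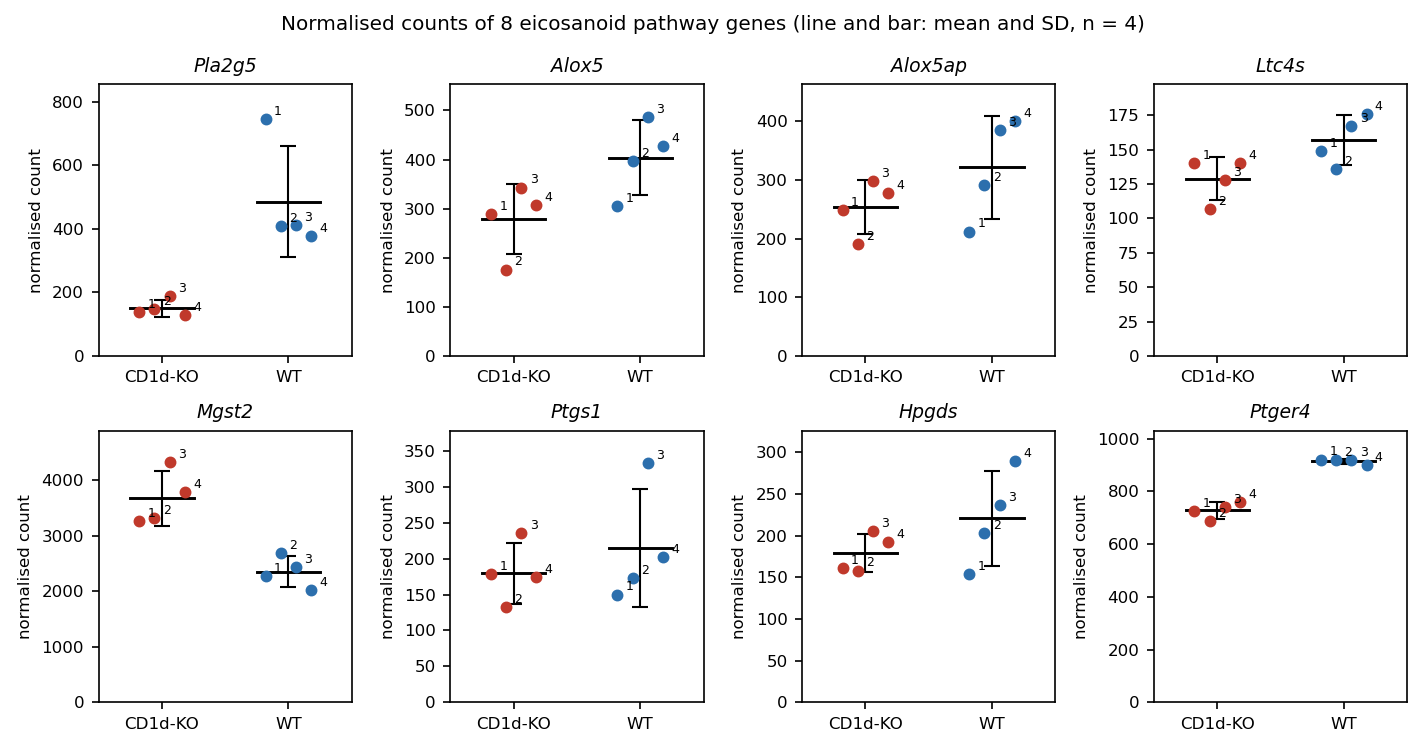
Normalised counts (y axes, starting at 0) of 8 eicosanoid pathway genes in each sample, numbered by replicate, where the line and bar are the mean and SD of 4 samples. Pla2g5, Mgst2 and Ptger4, which were not on the tuft list, separate the genotypes, whereas the tuft genes Alox5, Alox5ap, Ltc4s, Ptgs1 and Hpgds overlap.

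Among the signals that tuft cells send out, Il25 was near the limit of what this depth could measure. Il25, the cytokine that starts the type 2 circuit (chromosome 14, 54932695 to 54935836, plus strand), was covered by 5, 8, 5 and 4 fragments in CD1d-KO 1 to 4 against 8, 0, 8 and 3 in WT 1 to 4. High and low values occurred in both genotypes. The log2 fold change of 0.10 ± 0.82 (SE) had a 95% interval of -1.51 to 1.70, so a difference in Il25 was not detectable at this depth. Il17rb, a subunit of the IL-25 receptor that tuft cells themselves carry, had 160 ± 27.5 in CD1d-KO and 193 ± 15.7 in WT (SD, n = 4), a log2 change of -0.27 ± 0.15 (SE). Chat, which makes acetylcholine, had 45.0 ± 7.77 in CD1d-KO and 50.1 ± 8.13 in WT, a change of -0.15 ± 0.25. Of a list for receiving IL-4, IL-13 and IL-25, which also held the cytokine gene Il33, 9 genes were tested. DESeq2 called 0 of these 9, where 4.03% of all genes were called. An unadjusted p under 0.05 was reached by 3, all in the lower direction, where the share over all genes was 8.19%.

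The signalling genes of blood cell type, all but Sh2d6 otherwise known from blood cells, were the largest role and held the most members past an unadjusted p of 0.05. All 9 had changes below 0, with a median of -0.34 and a range of -0.51 to -0.08. An unadjusted p under 0.05 was reached by 5, where the share over all genes in the lower direction was 8.19%, and Matk was called. Matk encodes a kinase that restrains Src family kinases and is known from megakaryocytes and neurons (chromosome 10, 81252935 to 81262981, plus strand). Its normalised counts were 325, 222, 247 and 267 in CD1d-KO 1 to 4, against 303, 447, 406 and 356 in WT 1 to 4. CD1d-KO 1 was above WT 1, and otherwise all CD1d-KO samples were below all WT samples. Matk fell by 0.51 ± 0.15 (SE) on the log2 scale, from 378 ± 62.4 in WT to 265 ± 43.7 in CD1d-KO (SD), at a DESeq2 adjusted p of 0.0285.

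The call of Matk was not stable. It held in 6 of 16 alternatives, with adjusted p-values from 0.00479 to 0.719 and a log2 change of -0.42 to -0.67 in all of them. The 10 fits that lost it included edgeR (adjusted p = 0.117), those without the samples with Y-linked counts (0.0587) or with the stomach or leukocyte score as covariate (0.719 and 0.218), and those leaving out CD1d-KO 2 (0.160), CD1d-KO 3 (0.0796), CD1d-KO 4 (0.0663), WT 2 (0.211) or WT 3 (0.119). The sequences before its 2 annotated RefSeq starts are given because Matk was the only member called. Neither holds the octamer.
Matk promoter, GRCm38.p6 chr10:81252685-81252934, plus strand: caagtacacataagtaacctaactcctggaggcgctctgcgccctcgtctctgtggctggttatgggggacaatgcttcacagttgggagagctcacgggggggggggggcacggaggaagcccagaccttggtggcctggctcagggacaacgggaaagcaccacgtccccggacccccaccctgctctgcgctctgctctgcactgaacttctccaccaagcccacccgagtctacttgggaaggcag
Matk promoter, GRCm38.p6 chr10:81257049-81257298, plus strand: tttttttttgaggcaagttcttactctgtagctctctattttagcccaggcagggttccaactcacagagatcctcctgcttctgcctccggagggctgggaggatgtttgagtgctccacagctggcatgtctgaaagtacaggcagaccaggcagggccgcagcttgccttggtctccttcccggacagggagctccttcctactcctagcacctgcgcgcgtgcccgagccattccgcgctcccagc

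Of the other genes of this role, Sh2d6, an SH2 domain adaptor strongly expressed by tuft cells (chromosome 6, 72513641 to 72520036, minus strand), had normalised counts of 959, 838, 1030 and 1070 in the CD1d-KO samples against 1010, 1200, 1410 and 1320 in the WT samples. WT 1 lay within the CD1d-KO range and the other WT samples above it. The log2 fold change was -0.34 ± 0.12 (SE; unadjusted p = 0.00326, DESeq2 adjusted p = 0.0685). Vav1, a signalling protein downstream of immune receptors, ran from 462 to 628 in CD1d-KO and was 592 in WT 1 and 698 to 749 in WT 2 to 4, a change of -0.33 ± 0.12 (adjusted p = 0.0751). Fyb, an adaptor that joins receptors to actin, ran from 577 to 756 in CD1d-KO and was 625 in WT 1 and 817 to 1080 in WT 2 to 4, a change of -0.39 ± 0.16 (0.170). Inpp5d, the inositol phosphatase SHIP1, ran from 248 to 349 in CD1d-KO and was 283 in WT 1 and 362 to 477 in WT 2 to 4, a change of -0.38 ± 0.18 (0.254). The same arrangement, 3 WT samples above every CD1d-KO sample and WT 1 among them, thus recurred in these 4 genes.

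The remaining 4 differed less from 0 relative to their errors. Rac2, a small GTPase of blood cells, stood at -0.38 ± 0.24 (SE), Bmx, a Tec family kinase, at -0.19 ± 0.22, Plcg2, a phospholipase C gamma, at -0.10 ± 0.10 and Ptpn6, the phosphatase SHP-1, at -0.08 ± 0.12. Since leukocytes express many of these genes, members were also split by whether they are known from blood cells. The 19 that are had a median change of -0.33, with 17 below 0, and the 14 that are not had a median of -0.22, with 11 below 0. T and NK cell markers summed to 57.3 TPM in WT 1, the WT sample with the lowest tuft score, and to 4.52 TPM in WT 4. The 9 genes of this role summed to 179 TPM in WT 1 and 233 TPM in WT 4. In CD1d-KO samples the T and NK cell markers summed to 2.22 to 8.22 TPM and the genes of this role to 159 to 193 TPM. The part of leukocyte RNA in these values was not tested.

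Structural and other markers were mixed, with 4 of 7 below 0. Dclk1, the microtubule-linked kinase by which tuft cells are most often identified (chromosome 3, 55242364 to 55539068, plus strand), had normalised counts of 1600, 1580, 2060 and 2000 in the CD1d-KO samples against 1230, 1650, 2630 and 2300 in WT 1 to 4. All CD1d-KO values lay within the WT range. The log2 fold change was -0.11 ± 0.26 (SE; DESeq2 adjusted p = 0.926), with a 95% interval of -0.62 to 0.40, and its sign turned without WT 3 (0.069). Avil, the actin-severing protein advillin of the apical tuft (chromosome 10, 127000709 to 127020994, plus strand), had 1200, 1020, 1270 and 1340 in CD1d-KO against 1170, 1400, 1810 and 1800 in WT. WT 1 was lower than 3 CD1d-KO samples, and the other WT samples were above all of them. Its change was -0.35 ± 0.14 (unadjusted p = 0.0109, adjusted p = 0.145).

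Strip2, a component of phosphatase and kinase complexes that bear on cell shape, ran from 511 to 610 in CD1d-KO and was 557 in WT 1 and 645 to 810 in WT 2 to 4, a log2 change of -0.30 ± 0.13 (SE; DESeq2 adjusted p = 0.181). Trim38, a ubiquitin ligase of innate immune signalling that is not restricted to tuft cells (chromosome 13, 23782541 to 23791528, plus strand), went the other way. Its normalised counts were 258, 290, 430 and 420 in CD1d-KO 1 to 4, against 197, 307, 253 and 205 in WT 1 to 4. CD1d-KO 3 and 4 were above all WT samples, whereas WT 2 was above CD1d-KO 1 and 2. The log2 fold change was 0.54 ± 0.19 (unadjusted p = 0.00578, adjusted p = 0.0989). It was 0.82 (adjusted p = 0.00139) without CD1d-KO 1 and 2, the samples with Y-linked counts, and 0.42 to 0.68 on leaving out single samples, being called without CD1d-KO 1 or WT 2. Nrep, a neuronal regeneration-related protein, stood at 0.27 ± 0.15, Cd24a, a surface glycoprotein found on many epithelial cells, at 0.06 ± 0.07 and Kctd12 at -0.16 ± 0.25. The count of Cd24a is uncertain where reads also match related copies elsewhere in the genome.

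Levels of different genes were compared in TPM, which divides counts by exon length. Averaged over the 8 samples, Cd24a was the highest at 527 TPM, followed by Sh2d6 at 78.4, Kctd12 at 45.9, Avil at 37.7 and Ptpn6 at 35.7. Dclk1 was at 11.8 TPM. In all, 18 members were above 10 TPM and 5 below 2 TPM, namely Gfi1b (1.81), Chat (1.41), Gnat3 (1.08), Sucnr1 (1.02) and Il25 (0.39). The coefficient of variation over WT samples ranged from 8.12% to 78%, with a median of 20.2%, and over CD1d-KO samples from 2.18% to 52.5%, with a median of 16.5%. It was larger in WT for 22 of the 33.

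A further 32 genes of tuft cells, listed apart from the members, were read beside them. Of these, 27 were below 0 (84.4%, against 49.7% of all tested genes), with a median of -0.19. An unadjusted p under 0.05 was reached by 9 in the lower direction and 1 in the higher, where the shares over all genes were 8.19% and 7.07%. In opposite directions, 2 of the 32 were called, where 4.03% of all genes were called. The list was chosen with earlier results of these data known, so it is no independent repeat. It shares Tas1r3 and Itpr2 with the list of taste receptors and partners. Camk2b, a calcium and calmodulin-dependent kinase subunit, had normalised counts of 978, 823, 928 and 1050 in CD1d-KO 1 to 4, against 484, 576, 661 and 433 in WT 1 to 4. The groups did not overlap, and Camk2b rose by 0.81 ± 0.13 (SE) on the log2 scale (DESeq2 adjusted p = 2.67e-07), a call made in all 16 alternatives. Ptpn18, a tyrosine phosphatase, had 1570, 1470, 1280 and 1490 in CD1d-KO against 1880, 1840, 1750 and 1650 in WT. It fell by 0.29 ± 0.08 (adjusted p = 0.0140), also without overlap, and kept its call in 10 of 16 alternatives. That call was lost in edgeR (adjusted p = 0.0743), with the stomach or leukocyte score as covariate (0.496 and 0.913), and without CD1d-KO 2 (0.0640), WT 1 (0.0843) or WT 2 (0.107).

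Other secretory lineages of the same sort were read in the same way. Of 16 enteroendocrine genes, 5 were below 0 with a median of 0.09, and of 11 goblet genes, 8 were below 0 with a median of -0.10. DESeq2 called 0 of the 16 and 0 of the 10 tested genes of these lists, where 4.03% of all genes were called, and none reached an unadjusted p under 0.05. Differences between these lists and the tuft genes were not tested.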

How the data were processed

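Bulk RNA-seq of IECs sorted as EpCAM+CD45-CD31-Ter119- was analysed for 4 CD1d-KO and 4 WT samples, grouped by their titles. The authors deposited unnormalised fragment counts per gene, made with featureCounts 1.6.4 per the file headers, over exons, without strand and with primary alignments. The header names an mm10 annotation, while the methods name GRCm39. The table had 0 unused per-sample columns. The fits covered all genes with DESeq2 1.42.0 in R 4.3.3, the study's tool, with genotype as the only term, and p-values were adjusted (Benjamini-Hochberg) over 15446 genes. Errors are SE for log2 fold changes and SD for counts, with 95% intervals, and edgeR 4.0.16 was an alternative, as were other size factors, a count filter, a replicate block, stomach or leukocyte scores as covariates, and fits without single samples or those with Y-linked counts. TPM was computed from exon lengths. Replicates within a genotype differed by more than sampling noise (chi-square per degree of freedom 9.75 to 37.23). Counting gives an error of 31.6% at 10 counts and 10% at 100. This covers counting only, since PCR copies were not marked. Full values are given for members with an unadjusted p under 0.05 or genotypes that do not overlap, for Dclk1, Trpm5, Pou2f3 and Il25, and for called genes of the other lists, at most 3 per list. Sex-linked reads were taken as Ddx3y over 100. Members and lists were chosen with earlier results of these data known, so neither is independent evidence of a direction. The fits were tested on simulated data.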

Additional observations from a re-analysis of the deposited data

Results flagged for a closer look

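Of 88 groups of values examined, 5 held a single sample that stood apart from the other 3 of its genotype by Dixon's test. Chance alone flags about 1 group in 20, so this number is near what chance gives. CD1d-KO 2 was low for Ffar3, with a normalised count of 43.8 against 70.6 to 74.3 in the other CD1d-KO samples. It was also low for Plcb2, with 456 against 551 to 562, and for the score of the regulators Pou2f3 and Gfi1b, at -0.38 against -0.02 to 0.01. WT 3 was high for Il17rb, with 216 against 184 to 187 in the other WT samples, and for the score of the receptors Sucnr1 and Ffar3, at 0.71 against 0.13 to 0.22. CD1d-KO 2 and WT 3 were also the samples with the lowest and the highest score over all 33 tuft genes.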

How the results depend on the processing

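Leaving out 1 sample at a time gave 0 to 10 called members and 323 to 646 called genes in all, with a Cd1d1 change of -4.89 to -3.93 and a score difference of -0.31 to -0.12. Across all settings, the log2 changes of members gave the same direction and side of the threshold in 453 comparisons with the reported values. They were newly called in the same direction in 24, lost the call in 10 and turned in 35. Rgs13 and Kctd12, newly called with the stomach score, are counted as turned. Called members numbered 0 in edgeR, 2 with total counts as size factors, 2 with the stomach score as covariate and 3 with the leukocyte score. Over all genes, 1.66%, 3.94%, 0.722% and 0.641% were called in those fits, in that order. Genes called in all numbered 228 in edgeR, 372 without the CD1d-KO samples with Y-linked counts, 101 with the stomach score and 106 with the leukocyte score, against 622. With each gene divided by its SD, the score difference was -0.65 in SD units, a scale that cannot be set against the log2 difference of -0.21. On the log2 scale the difference was -0.06 without the samples with Y-linked counts. The cause of the shifts between fits was not tested.

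Whether the replicate numbers pair the samples could not be settled. The correlation of same-numbered deviations over all expressed genes was -0.03 to 0.20, with 2 of 4 pairs the best match, which neither shows nor excludes pairing. With a replicate block, 5 members were called, namely Trpm5, Alox5, Sh2d6, Fyb and Avil, and Matk was not (adjusted p = 0.0829), while 3.86% of all genes were called (569 of 14722).

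Signs turned in these fits. With the stomach score as covariate the log2 change became positive for Pou2f3 (0.56), Ffar3 (0.31), Plcb2 (0.034), Trpm5 (0.18), Rgs13 (1.12), Ptgs1 (0.48), Hpgds (0.21), Alox5ap (0.32), Ltc4s (0.025), Chat (0.24), Bmx (0.67), Sh2d6 (0.074), Fyb (0.22), Inpp5d (0.28), Rac2 (0.24), Ptpn6 (0.23), Dclk1 (0.74), Avil (0.21), Kctd12 (0.79), Strip2 (0.14) and the stomach marker Vsig1 (0.12), of which Rgs13 and Kctd12 were called. With the leukocyte score it was -0.073 for Cd24a and 0.33 for the T cell marker Cd8a. Without the samples holding Y-linked counts, values were 0.045 for Pou2f3, 0.18 for Rgs13, 0.098 for Bmx, 0.034 for Ptpn6, 0.059 for Dclk1 and -0.15 for Il25. Leaving out 1 sample at a time gave -0.29 to 0.082 for Rgs13, -0.41 to 0.040 for Ptgs1, -0.16 to 0.004 for Ptpn6 and -0.28 to 0.069 for Dclk1, with the upper end in each case without WT 3, and -0.32 (without WT 2) to 0.44 (without WT 1) for Il25. Of the members, 6 had under 100 counts in every sample (Gfi1b, Sucnr1, Gnat3, Gng13, Il25 and Chat), where counting error limits what can be seen.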
